A study of Homo sapiens with 8 samples.

Results

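One of the 8 two-colour expression arrays of the series compared PC3 cells given the microRNA (miRNA) strand miR-125b-1-3p with mock PC3 cells, and its values are described here. The array was found by the transfection label of its treated channel, and it is 1 of 8 samples. PC3 is an established androgen-independent prostate cancer line. Its mock RNA, which the labels give as not transfected, carried Cy3, and the RNA of cells given the strand with a lipid reagent carried Cy5. The dose and the time of this transfection are not given in the sources used here. The other 7 arrays held the same dyes in the same orientation: PC3 given the small molecule bisamide for 24 h or 48 h, which the labels list under transfection, C4-2 (prostate cancer) given miR-199-3p, 786-O (renal carcinoma) given miR-532-5p or miR-532-3p, and T24 (bladder cancer) given miR-140-5p or miR-140-3p. They serve below as a background of the dyes and the probes. With 1 array for each treatment and no dye swap, no test was possible, and the precision of what follows is limited by that number.

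A miRNA gene is transcribed as a hairpin, from which a duplex of 2 strands is cut. One strand is usually loaded into an Argonaute protein, where bases 2 to 8 from its 5′ end, the seed, pair with sites in messenger RNAs and lower their stability and translation. The other strand is called the passenger strand and is mostly degraded, although some passenger strands are loaded as well. From the MIR125B1 hairpin, miR-125b-5p is the well-known strand and miR-125b-1-3p comes from the opposite arm. The related gene MIR125B2 gives the same 5p strand and a different 3p strand, miR-125b-2-3p.

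The sequences below are those of RefSeq (GRCh38.p14), and they are shown because the comparison of probes with and without a match rests on them. The hairpin lies on the minus strand of chromosome 11, at chr11:122099757-122099844, and the 3p strand within it at chr11:122099769-122099790. Capitals mark the seed in the mature strands and the whole 3p strand in the hairpin.
hsa-miR-125b-1-3p: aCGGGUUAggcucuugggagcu
hsa-miR-125b-5p: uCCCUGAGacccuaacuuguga
hsa-miR-125b-2-3p: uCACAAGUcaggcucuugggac
MIR125B1 hairpin: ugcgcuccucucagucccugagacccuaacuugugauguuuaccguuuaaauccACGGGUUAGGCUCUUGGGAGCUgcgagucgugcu

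The array held probes for 43317 genes, and 18693 of these were well above background in both channels and are called measured here. A further 56 genes were well above background in the mock channel alone and 4073 in the transfected channel alone. For these only a bound can be given, in which the dim channel is taken at its own signal or, where that is larger, at the dimmest signal still called above background; such a bound is open to dye bias. By that bound 1 of the 56, the actin-like gene ACTL8, was at least 2.18-fold lower after transfection, and none of the 4073 was at least 2-fold higher. ACTL8 was lower in the treated channel of all 7 other arrays too, with log2 ratios of -1.96 to -1.03, and the bound was at least 2.67-fold and 3.20-fold on the bisamide arrays in PC3. The ratios are log2 values of transfected over mock RNA, so that 1.0 stands for a 2-fold difference. Over the measured genes the median ratio was 0.0157 with an SD of 0.195, and 45.6% of them lay below 0. For single genes, the spread could be read in a pair of ways. The 300 probes printed as 10 spots each had a median SD of 0.0389 between spots of the array, and the log2 intensity of the PC3 mock, which was read on 3 arrays, had a median SD of 0.0822 over the measured genes. The labels do not say whether those 3 mocks were separate cultures.

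The mock channel was first read for the markers of its cells. Of 7 markers of prostate luminal cells, 4 were well above background, among them the homeobox factor HOXB13 with a raw Cy3 intensity of 9231, whereas the secreted protease KLK3 (22.2) and FOLH1 (26.6) were not. All 6 epithelial markers were well above background, up to 18250 for KRT19. None of the 3 basal or 3 urothelial markers was. Of the markers of other tissues, 2 of 4 for leukocytes, 2 of 5 for fibroblasts, 3 of 4 for endothelium and 1 of 3 for kidney were above background, with raw intensities up to 94.2.

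By these ratios, few genes differed strongly between transfected and mock cells. Below -1.5 lay 1 gene (0.00535% of the measured genes) and above 1.5 lay 1 gene (0.00535%). With a limit of 1.0, 12 genes were lower after transfection (0.0642%) and 21 were higher (0.112%). With a limit of 0.5, which is a 1.41-fold difference, 165 were lower (0.883%) and 330 higher (1.77%). These shares are the background for the counts past 0.5 in the gene lists below. At such shares, a short list with no gene past 0.5 is not unusual. On the other 7 arrays, 3 to 85 genes lay below -1.0 and 14 to 55 above 1.0, so the counts of the miR-125b-1-3p array fell inside both ranges.

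**Figure D1:**
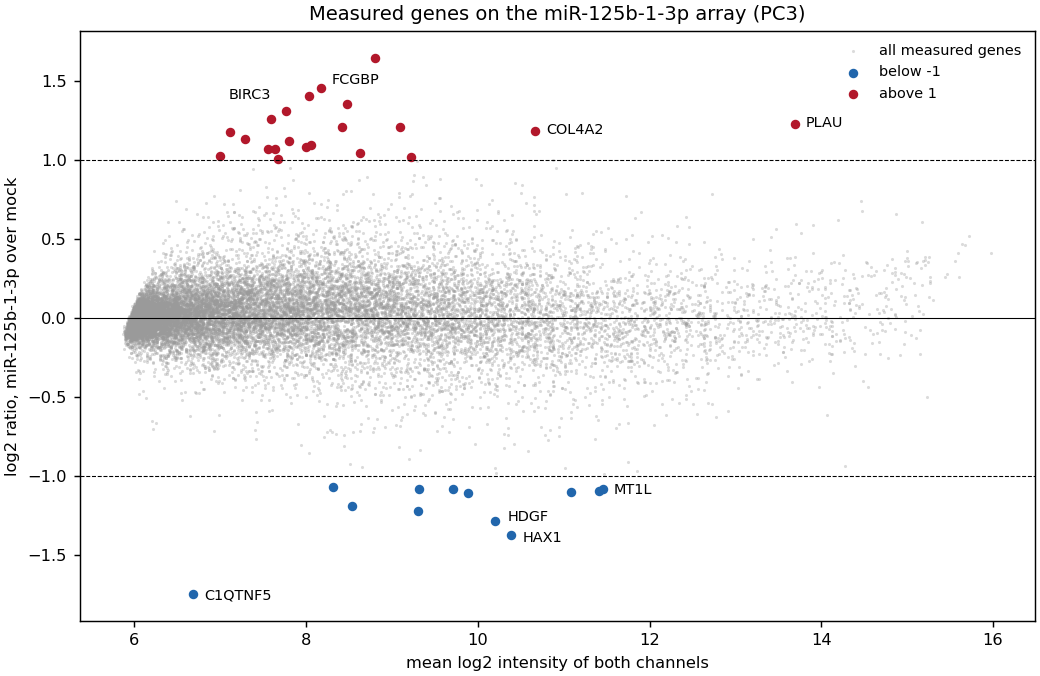
Log2 ratio of miR-125b-1-3p over mock (vertical axis) against the mean log2 intensity of both channels (horizontal axis) for the 18693 measured genes; blue points are the 12 genes below -1.0 and red points the 21 genes above 1.0 (dashed lines). PLAU is the brightest of the higher genes, at a mean log2 intensity of 13.7, while COL4A2 (10.7) lies among the intensities of HAX1 (10.4), HDGF (10.2) and MT1L (11.46) on the lower side.

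Each of these genes was also read on the other arrays. Of the 12 lower genes, 11 were measured on all 8 arrays, and 9 of these read below all 7 other arrays. Of the 21 higher genes, 12 were measured on all 8 arrays and all 12 read above all 7 others. Over the 12579 genes measured on all arrays the shares were 11.7% below and 12.6% above, but the 12 and 21 genes were chosen for their ratios on this array, so their counts are a description and not a comparison with those shares. The ratio was larger than 2 SD of the gene's own 3 PC3 mocks for all 12 lower and 20 of the 21 higher genes. That count is a description as well. It was nearly set by the choice of genes past 1.0, since the median mock SD over the measured genes was 0.0822. Set against the mean of the 3 mocks, every one of the 33 kept its sign, and 8 lower and 10 higher genes stayed past 1.0. This ratio uses the same transfected channel and counts the array's own mock among the 3, so the kept signs are not a separate check. Of the lower genes that did not read below all 7 other arrays, C1QTNF5, a secreted protein of the C1q family, had the lowest ratio at -1.75. Its ratio was negative on the other arrays too, between -1.94 and -0.68, and relative to the mean of the bisamide arrays in PC3 it came to 0.02, so a ratio of this size also occurred without miR-125b-1-3p.

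**Figure D2:**
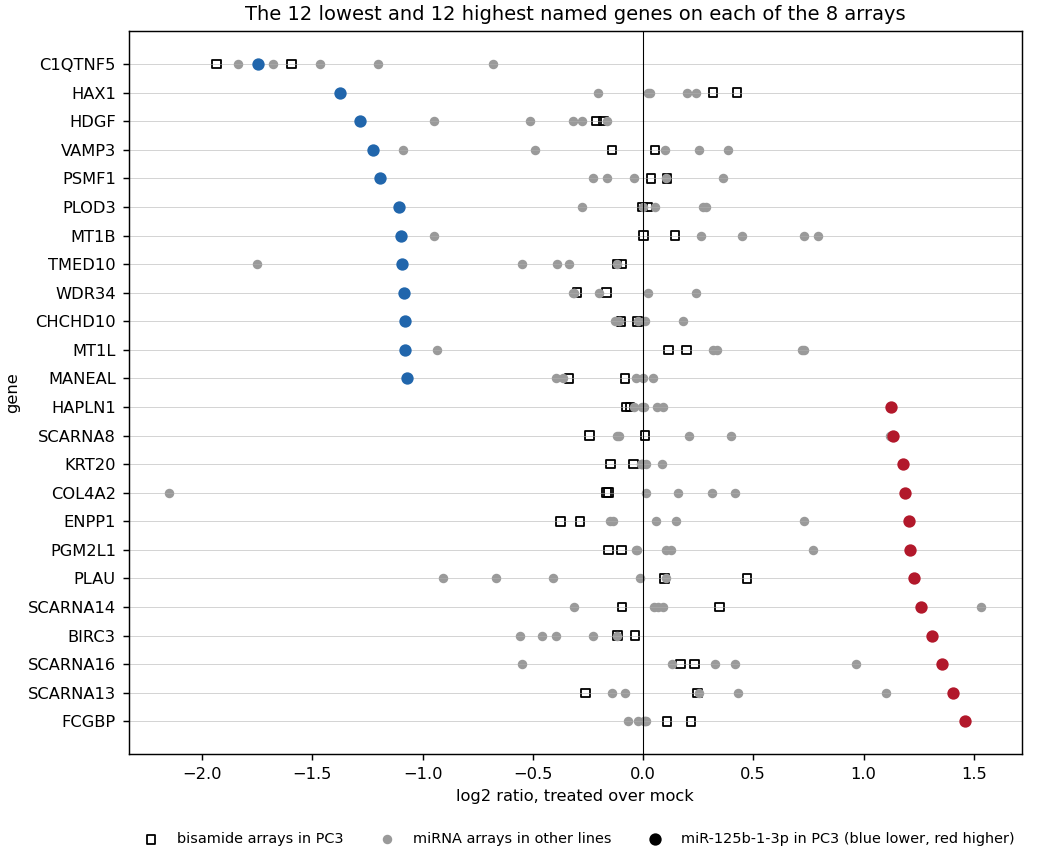
Log2 ratio of treated over mock (horizontal axis) for the 12 lowest and 12 highest named genes (rows), on the miR-125b-1-3p array (large blue and red points), the bisamide arrays in PC3 (open squares) and the 5 miRNA arrays in other lines (grey points). HAX1, PSMF1, PLOD3, BIRC3 and PLAU stand clear of the other arrays, C1QTNF5 lies among them, and the SCARNA genes are approached or passed by 1 grey point.

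Among the lower genes, HAX1, a mitochondrial protein that protects cells from apoptosis, had a ratio of -1.38, which is 2.59-fold lower. Its log2 intensity was 9.003 in the transfected channel, against 10.38 in the mock of the same array and 9.86 and 9.73 in the mocks of the bisamide arrays. The transfected channel was thus below all 3 mocks, and the mock of its own array was the highest of them. Against the mean of the 3 mocks the ratio was -0.99. On the other 7 arrays HAX1 lay between -0.20 and 0.43.

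HDGF, a heparin-binding growth factor that also acts in the nucleus, had a ratio of -1.28. It read 8.86 after transfection and 10.14, 9.62 and 9.45 in the mock of the same array and of the bisamide arrays at 24 h and 48 h. Its mock was again the highest of the 3, and the ratio to their mean was -0.89. A second probe for HDGF gave -0.13, so the difference was seen by 1 of 2 probes. The gene next to it, MRPL24, a protein of the large mitochondrial ribosomal subunit, read 9.96 after transfection and 10.60 in its own mock. The other PC3 mocks read 10.11 and 10.06, and the ratio was -0.63 on the array and -0.30 against the 3 mocks. The probes of HDGF and MRPL24 lie 5035 bases apart on chromosome 1 (GRCh37).

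VAMP3, a vesicle SNARE of recycling endosomes, read 8.02 after transfection against 9.24, 9.31 and 9.25 in the 3 mocks. The mocks lay close together, with an SD of 0.03, and the ratio was -1.22 within the array and -1.20 against the 3 mocks. On the other arrays the ratio of VAMP3 ran from -1.09, with miR-199-3p in C4-2, to 0.38. A second VAMP3 probe gave -0.64. The 5 other measured members of the VAMP family lay between -0.15 and 0.09.

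PSMF1, an inhibitor of the proteasome known as PI31, read 7.36 after transfection and 8.56, 8.46 and 8.67 in the mocks. Its ratio was -1.19 on the array and -1.14 against the 3 mocks, with -0.22 to 0.36 on the other arrays. Its 3 further measured probes gave -1.12, -1.02 and -0.17. The last of these, which lies apart in value, was placed at 1148367 to 1148426 on chromosome 20 (GRCh37).

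PLOD3, an enzyme that hydroxylates and glycosylates lysines of collagen, read 8.63 after transfection and 9.74, 9.82 and 9.72 in the mocks. The ratio was -1.11 by either mock, and the other 7 arrays lay between -0.28 and 0.29. Its relative PLOD2 had a ratio of 0.88 and PLOD1 of 0.10. Of 12 measured collagen modifying enzymes, a list chosen after values had been seen, PLOD3 was the 1 below -0.5 and PLOD2 the 1 above 0.5.

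TMED10, a p24 cargo receptor between endoplasmic reticulum and Golgi, read 10.18 after transfection and 11.27, 11.33 and 11.51 in the mocks, a ratio of -1.09. On the array of miR-532-5p in 786-O it was lower still, at -1.75. A second probe gave -0.70, and the other 6 measured genes of the p24 group lay between -0.11 and 0.16. WDR34, an intermediate chain of the cilium dynein that RefSeq now names DYNC2I2, had a ratio of -1.08 (other arrays -0.32 to 0.24). CHCHD10, a protein of the mitochondrial intermembrane space, also had -1.08 and was measured on 5 of the other arrays. MANEAL, a Golgi mannosidase-like protein, had -1.07 by 1 probe and -0.17 by another.

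Metallothioneins, small proteins that bind zinc and copper, made up the other lower genes. The probes of MT1B, MT1L, MT1E and MT2A read -1.10, -1.08, -0.98 and -0.93. MT2A, the brightest of them, had a log2 intensity of 13.39 after transfection and of 14.33, 14.17 and 13.71 in the 3 mocks, so that the transfected channel was below each mock. MT1B read 9.85 against 10.95, 11.09 and 10.59. MT1HL1 and MT1A followed at -0.74 and -0.67. In contrast, MT1X read 0.00, MT1M 0.30, MT3 0.32 and MT1F 0.71, all of low intensity.

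Over the 10 measured metallothioneins of 15 on the array, 6 lay below -0.5 and 1 above 0.5. Of all measured genes, 0.883% and 1.77% did. The median of the family was -0.72 relative to that of all genes. The SD of such a median over the 3 PC3 mocks was 0.24. The family was collected after its values had been seen. The direction of this median held under every scaling tried, with a shift of -0.36 after median centring. The other arrays gave medians of -0.67 to 0.66 for the same genes. The lowest of these came near the miR-125b-1-3p array: with miR-199-3p in C4-2, MT1B was at -0.95, MT1L at -0.94, MT1E at -0.91 and MT2A at -0.93. On the bisamide arrays in PC3 MT2A was at 0.25 and 0.35.

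Metallothionein genes are alike in sequence, and the share of signal that crossed between their probes was not tested. The longest run of bases shared by MT1A and MT1HL1 was 27 of the 60 of a probe, the longest shared by MT1E and MT1L was 19, and MT2A shared at most 6 with another. A second MT1B probe gave -0.74 and a second MT1E probe 0.15. Of 14 measured genes of metal transport and the metal response, none was below -0.5 or above 0.5. MTF1, the zinc-sensing factor that activates metallothionein genes, was at -0.34, the zinc exporter SLC30A1 at -0.21 and the zinc importer SLC39A10 at 0.49.

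**Figure D3:**
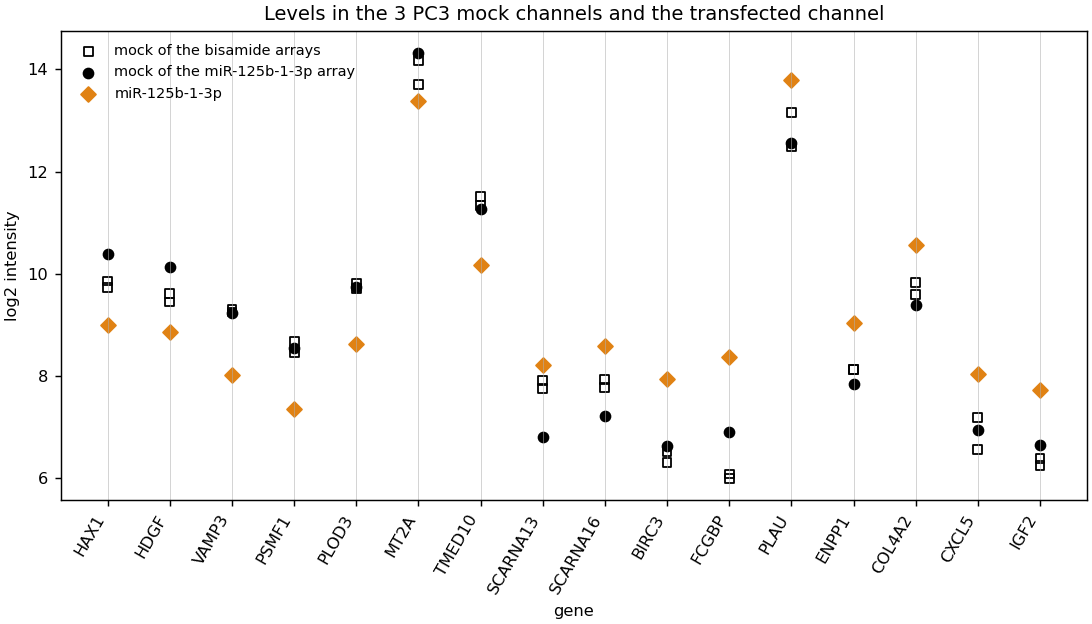
Log2 intensity (vertical axis) of 16 named genes in the transfected channel (orange diamonds), in the mock channel of the same array (black points) and in the mock channels of the bisamide arrays in PC3 (open squares). The diamond is below all 3 mocks for the 7 genes on the left and above all 3 for the 9 on the right. Of the genes on the left, the own mock is the highest for HAX1, HDGF and MT2A. Of those on the right, it is the lowest for SCARNA13, SCARNA16, ENPP1 and COL4A2.

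Among the higher genes, the gene that differed most from the other arrays was BIRC3, which encodes the ubiquitin ligase cIAP2, an inhibitor of apoptosis and a known target of NF-kappaB. It read 7.95 after transfection against 6.64, 6.52 and 6.32 in the 3 mocks. Its ratio was 1.31 on the array and 1.30 against the 3 mocks, or 2.48-fold higher, while all 7 other arrays lay between -0.56 and -0.04.

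Other targets of NF-kappaB were uneven. NFKBIA, the inhibitor of NF-kappaB that the factor itself induces, was at 0.86, the pentraxin PTX3 at 0.999 and the neutrophil chemokine CXCL5 at 1.09. The mocks of PTX3 had an SD of 0.83, and its ratio reached 1.05 on another array. CXCL5 read 8.04 after transfection and 6.95, 7.18 and 6.56 in the mocks. The chemokines CXCL1 and CXCL8 were at -0.51 and -0.32, and the cytokine gene IL6 at -0.06. The ratio of the cytokine gene IL1B was -0.59, but its mocks had an SD of 1.51 and the ratio to all 3 was 1.13, so its sign depended on the mock. Of 21 measured NF-kappaB targets, a list written after values had been seen, 4 lay above 0.5 and 2 below -0.5. Of all measured genes, 1.77% and 0.883% did. The median of the NF-kappaB targets was 0.21 above that of all genes, with -0.41 to 0.01 on the other arrays. The SD of such a median over the 3 PC3 mocks was 0.17, which is not far below that shift.

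PLAU, the secreted protease urokinase that activates plasminogen, was the brightest of the higher genes. It read 13.80 after transfection and 12.57, 13.15 and 12.49 in the mocks, a ratio of 1.23. A second probe gave 1.09, and the other arrays lay between -0.91 and 0.47. PLAT, the tissue-type activator of plasminogen, went the other way with a ratio of -0.99, although its mocks varied with an SD of 0.55 and the ratio to the 3 mocks was -0.36. The urokinase receptor PLAUR was at 0.22.

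COL4A2, a chain of the basement membrane collagen, had a ratio of 1.19, from 10.57 after transfection and 9.38, 9.59 and 9.84 in the mocks. Its own mock was the lowest, and the ratio to the 3 mocks was 0.98. On the other arrays it ran from -2.15, with miR-140-5p in T24, to 0.42. Its partner chain COL4A1 was at 0.67, COL4A6 at 0.67 and COL4A5 at 0.46. Against the 3 mocks these 3 were at 0.40, 0.29 and 0.55, and COL4A1 reached 0.54 on another array. The laminin chains LAMB2 and LAMB1 were at 0.37 and 0.36. LAMB2 was also at 0.41 and 0.34 on the bisamide arrays, and LAMB1 reached 0.60 on another array. A list of collagen IV, laminin, nidogen and perlecan (HSPG2) genes was again made after values had been seen. Of its 15 measured genes, 14 were at or above 0.00, where 54.4% of all measured genes lay. Above 0.5 were 3, against 1.77% of all measured genes. HSPG2 was at 0.23, with -0.01 to 0.28 over its probes and a mock SD of 0.68. LAMA4 was at -0.08 on the array and at -0.64 against the 3 mocks, which had an SD of 0.61. The median of the list was 0.32 above all genes, against -0.14 to 0.31 on the other arrays, and its SD over the 3 PC3 mocks was 0.12. Of the integrins, the receptors of these proteins, ITGA7 was at 1.05. ITGA7 was among the genes above 1.0, is not in the integrin list below and was named after its value was seen. ITGB1 was at 0.62 and ITGAV at 0.59, while ITGB4 and ITGA1 were at -0.25 and -0.40. ITGB1 read 9.91 after transfection and 9.29, 9.27 and 8.89 in the mocks, and its ratio was positive on all 7 other arrays as well, from 0.15 to 0.40. Over 24 measured genes of integrins and focal adhesions, 6 were below 0 and the median was 0.11 above all genes, which turned to -0.041 against the 3 mocks.

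Further higher genes had no common list. FCGBP, a protein of mucus that binds antibodies, had a ratio of 1.46 from 8.37 after transfection and 6.91 in its mock. It was measured on 3 of the other arrays, no other array passed 0.22, and its other PC3 mocks were at 5.996 and 6.084. ENPP1, an enzyme of the cell surface that makes pyrophosphate, was at 1.21 by 1 probe and 0.85 by another. Its own mock was the lowest of the 3, and the ratio to the 3 mocks was 0.92. The growth factor gene IGF2 had a ratio of 1.07, from 7.72 after transfection and 6.65, 6.25 and 6.39 in the mocks. PGM2L1 (1.21), KRT20 (1.18), HAPLN1 (1.12) and DNAH7 (1.096) were not measured on all arrays. The single gene above 1.5 was the unnamed LOC101930246 at 1.65, named here after its value was seen. Its 3 mocks had an SD of 1.21, and its ratio to their mean was 0.28.

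Small Cajal body RNAs (SCARNA genes), which guide the modification of the RNAs of the spliceosome, held 5 of the 21 higher places. SCARNA13, SCARNA16, SCARNA14, SCARNA8 and SCARNA11 had ratios of 1.41, 1.36, 1.26, 1.14 and 1.03. SCARNA13 read 8.22 after transfection and 6.82 in its own mock, but 7.91 and 7.76 in the bisamide mocks. The transfected channel was thus the highest of the 4 and its own mock the lowest, and the ratio to the 3 mocks was 0.56. For SCARNA16 the values were 8.58 against 7.23, 7.94 and 7.78, and the ratio to the 3 mocks was 0.78.

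Of 20 measured SCARNA genes, 10 lay above 0.5 and none below -0.5, against 1.77% and 0.883% of all measured genes. Their median was 0.50 above that of all genes. The SD of such a median over the 3 PC3 mocks was 0.09. This list, too, was made after values had been seen. Its median was 0.25 against the 3 PC3 mocks and 0.91 by the scanner's own ratio, and it was positive under each scaling tried. On the other arrays it ran from -0.07 to 0.43. With miR-140-3p in T24, SCARNA14 was at 1.54 and SCARNA8 at 1.12, so these high ratios also occurred without miR-125b-1-3p. The H/ACA box snoRNAs (89 measured) had a median 0.10 above all genes with 8 above 0.5, and the C/D box snoRNAs (104 measured) a median of -0.00 relative to all genes with 1 above 0.5.

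The pathways of the 2 strands were then read from lists. Of 30 genes known as targets of miR-125b-5p, 23 were measured, none was below -0.5 and 2 were above 0.5. The shares over all measured genes were 0.883% and 1.77%. The proapoptotic gene BAK1 was the lowest at -0.31, and BMF, another proapoptotic gene of the BCL2 family, was the highest at 0.64 by 1 probe and at 0.12 by another. The median of the list was 0.11 above that of all genes, with -0.05 to 0.08 on the other arrays. MIR100HG, the long RNA from whose locus miR-125b-1 is made, was at 0.37, with 9.34 after transfection and 8.98, 8.61 and 9.06 in the mocks. The level of the transfected strand itself was not measured here.

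Of 22 genes of miRNA processing and silencing, all were measured, none was below -0.5 and 4 were above 0.5. Over all measured genes, 0.883% were below -0.5 and 1.77% above 0.5. DCP2, the enzyme that removes the cap of messenger RNAs, had a ratio of 0.996 from 7.72 after transfection and 6.72, 6.78 and 6.72 in the mocks. TNRC6A, which joins Argonaute to the deadenylases, was at 0.51, the deadenylase CNOT7 at 0.50 and DICER1 at 0.50. AGO2, the Argonaute protein that cuts its targets, was at 0.05, and the nuclear exporter XPO5 was the lowest at -0.24. The list's median was 0.09 above all genes, and 5 of the other 7 arrays had a higher one, up to 0.16.

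Cell cycle genes were lower on this array and on most of the others. Of 31 genes of S phase, 24 (77.4%) were below 0, against 45.6% of all measured genes. Of these, 2 were below -0.5, and no gene of the list was above 0.5, against 0.883% and 1.77% of all measured genes. CDC45, which starts replication forks, was at -0.80 and the factor E2F1 at -0.63. The median was -0.25 relative to all genes, but 4 of the other 7 arrays had a lower one and the median turned to 0.11 relative to the other 7 arrays and to 0.17 relative to the bisamide arrays. The 30 mitosis genes had a median of -0.14, with FOXM1 at -0.64 and HMMR at 0.27, and this turned positive relative to the other arrays and after median centring. The SD of such medians over the 3 PC3 mocks was 0.10 for the S phase genes and 0.12 for the mitosis genes. A difference of the dyes or probes, fewer cells in a phase and less RNA in each cell cannot be told apart here, as there is no dye swap.

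Of 29 regulators of apoptosis, all measured, 1 was below -0.5 (HAX1) and 2 above 0.5 (BIRC3 and BMF). Over all measured genes the shares were 0.883% and 1.77%. The median was 0.06 above all genes, and the 7 other arrays lay between -0.16 and 0.01. BCL2 was at -0.12, BCL2L1 at 0.00 and MCL1 at 0.26. Of 29 measured interferon-stimulated genes, which double-stranded RNA can induce, 3 were above 0.5 and none below -0.5 (1.77% and 0.883% of all measured genes). IFI6 (0.65), MX1 (0.64) and IFITM1 (0.56) were the highest, whereas IFIT1, IFIT2 and IFIT3 were at -0.29, -0.31 and -0.28. The mocks of IFIT2 varied with an SD of 0.42 and its ratio to the 3 mocks was 0.13.

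**Figure D4:**
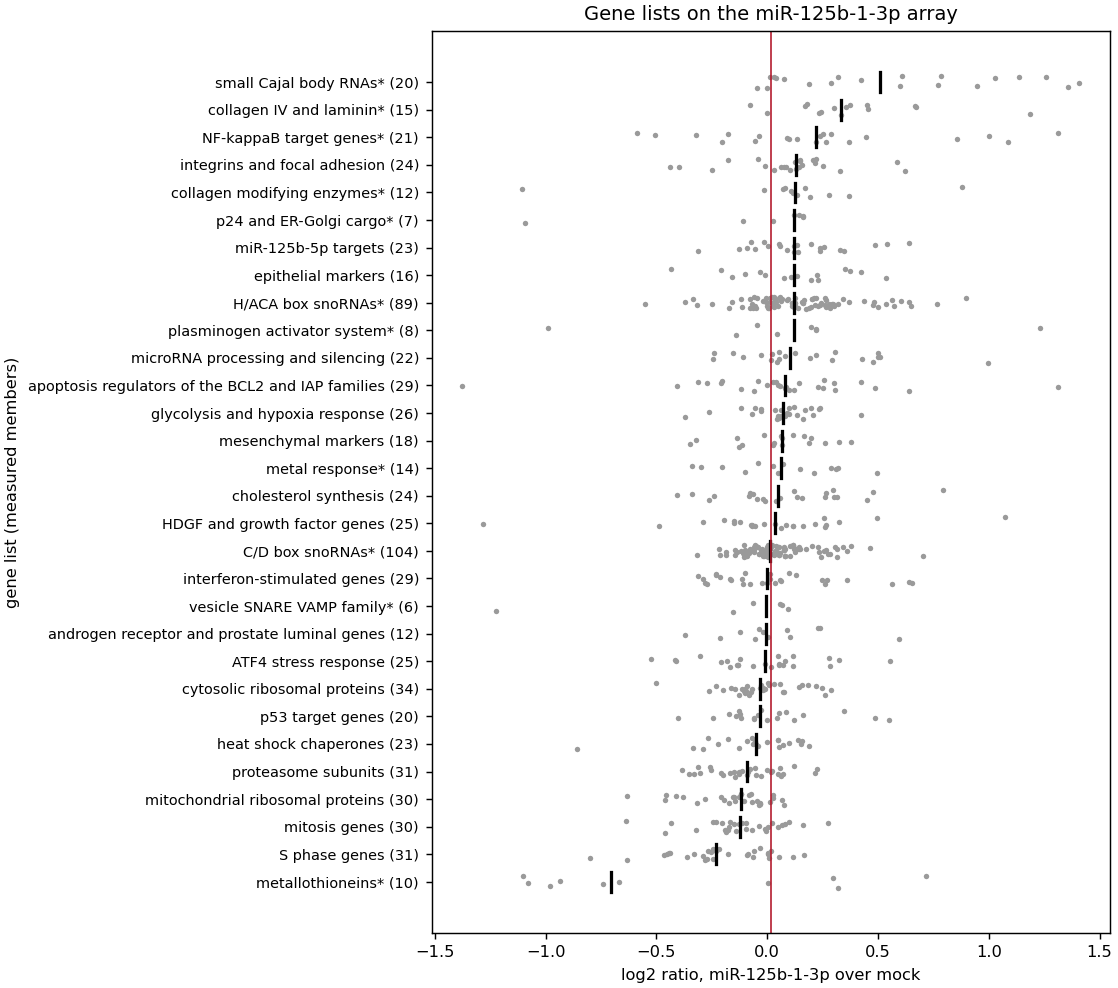
Log2 ratio of miR-125b-1-3p over mock (horizontal axis) for every measured member (grey points) of 30 gene lists (rows, with the number of measured members); black bars are list medians, the red line is the median of all measured genes, and lists with an asterisk were chosen after values had been seen. Metallothioneins lie farthest to the left and small Cajal body RNAs farthest to the right, and most other medians are close to the line.

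The probes were searched for the seed of the transfected strand. A site for bases 2 to 8 of miR-125b-1-3p reads TAACCCG and holds a CG dinucleotide. It was present in 21 of 58201 probes (0.0361%), on the probe's own strand, which is that of the transcript. The sites of the other strands transfected in the series were more frequent: the site ACTACTG of miR-199a-3p was in 234 probes (0.402%), the site AAGGCAT of miR-532-5p in 283 (0.486%), the site GTGGGAG of miR-532-3p in 239 (0.411%), the site AACCACT of miR-140-5p in 254 (0.436%) and the site CTGTGGT of miR-140-3p in 353 (0.607%). A probe covers 60 bases of its transcript, so a match or its absence in the probe says nothing about the rest of the transcript.

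Of the 21 probes, 6 were measured. All 6 hold the full site, and parts of 5 are shown, with TAACCCG in capitals and the position of the whole probe in GRCh37; KIFC2 is given by its value alone.
HDAC5, chr17:42154164-42154223, minus strand: gatttcagttaagtattttgTAACCCGtta
DNAH10, chr12:124343704-124343763, plus strand: cgagaccatgtTAACCCGccacacgacgat
REEP6, chr19:1497862-1497921, plus strand: gctaggaggctccaataaagcTAACCCGga
ARHGEF28, chr5:73200191-73205256, plus strand: catacagaattTAACCCGtctcttatacag
SPTAN1, chr9:131395722-131395781, plus strand: tggtgcttcacTAACCCGcttccggtccag

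HDAC5, a histone deacetylase, had the lowest ratio of the 6 at -0.13, within the range of the other arrays (-0.20 to 0.22). DNAH10, KIFC2 and REEP6 were at -0.06, -0.01 and 0.05, and ARHGEF28 and SPTAN1 at 0.15 and 0.16. DNAH10 was dim, with raw intensities of 28.5 in the mock and 22.7 in the transfected channel. The probe that stands for ARHGEF28 lacks the site and was at 0.40. The median of the 6 was 0.01 above that of all measured probes, with -0.07 to 0.20 on the other arrays, and the spread of such a median over the 3 PC3 mocks was 0.0448. Its sign on this array depended on the processing.

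Weaker matches were more frequent. A site for bases 2 to 7 followed by A reads AACCCGA and was in 60 probes (0.103%), 20 of them measured. Their median was -0.10 relative to all probes, while the same probes gave -0.01 to 0.08 on the other 7 arrays. Of the 20, 15 were below 0, as were 46.5% of all measured probes, 1 was below -0.5 and none was above 0.5. The site for bases 2 to 7 alone, AACCCG, which contains all of those sites, was in 190 probes (0.326%), and its 75 measured probes had a median of -0.05 (other arrays -0.01 to 0.05). The 5 probes with the lowest ratios are shown with AACCCGA in capitals, one of them under the transcript name that the array gives it.
MRPL24, chr1:156707454-156707513, minus strand: aattatccctaAACCCGAatttcccagagc
ENST00000482584, chr5:78806278-78806337, plus strand: agaaatggtatcaagaAACCCGAagcacaa
C11orf71, chr11:114270727-114270786, minus strand: ccctgccgttgAACCCGAtctcctaagaag
SZRD1, chr1:16721536-16721595, plus strand: caggatctcccAACCCGAagacagcaggca
MELK, chr9:36677192-36677251, plus strand: tgtgccagcttcaaaAACCCGAtgtggtgg

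MRPL24 was at -0.63 and below the other arrays (-0.23 to 0.18). Its ratio to the 3 mocks, which had an SD of 0.30, was -0.30. ENST00000482584 was at -0.41, also below the other arrays (-0.08 to 0.20). C11orf71 was at -0.31 and SZRD1 at -0.25. MELK, a kinase of dividing cells, was also at -0.25, above the median of the other arrays at -0.35. None of the representing probes of the 12 lower or the 21 higher genes held AACCCG, which 0.316% of the measured genes' probes did.

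**Figure D5:**
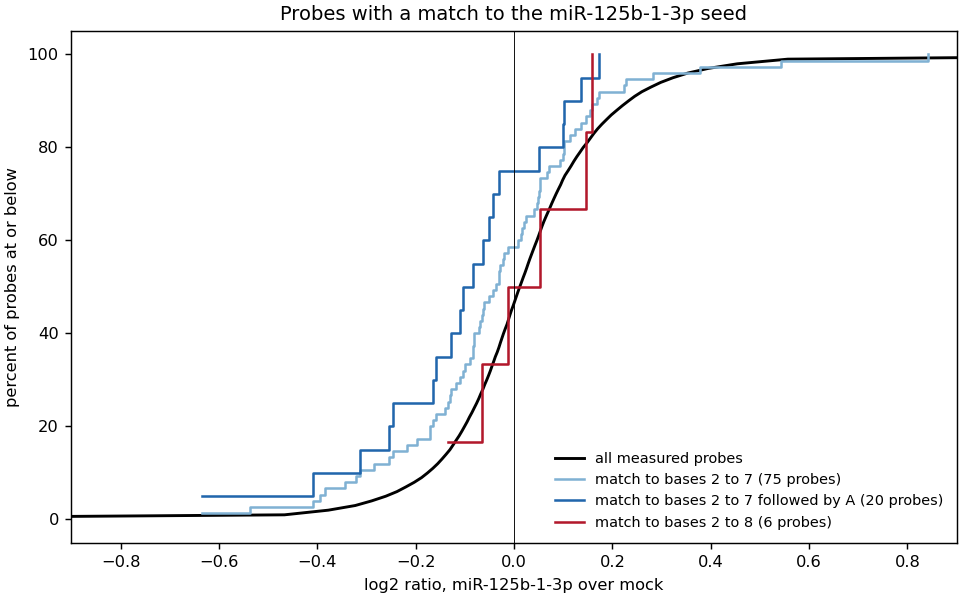
Percent of measured probes at or below a log2 ratio of miR-125b-1-3p over mock (horizontal axis, drawn from -0.9 to 0.9), for all probes (black) and for probes with a match to bases 2 to 8 (red, 6 probes), bases 2 to 7 followed by A (dark blue, 20 probes) and bases 2 to 7 (light blue, 75 probes) of the strand. The dark blue line lies left of the black one over most of its length and the red line crosses it.

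The other strands give a scale for these medians. On its own array, each of the 5 other transfected strands gave a median for its site of bases 2 to 8 of -0.13 to -0.05 relative to all probes, over 78 to 152 measured probes. The medians for bases 2 to 7 followed by A were -0.13 to -0.02, over 45 to 119 measured probes. Those for bases 2 to 7 alone were -0.08 to -0.02. For miR-199-3p the seed of miR-199a-3p was used. The partner strand miR-125b-5p has the site CTCAGGG, found in 254 probes (0.436%). Its 106 measured probes had a median of 0.02 on the miR-125b-1-3p array and of -0.05 to 0.01 on the other arrays. STX2, a SNARE of the cell membrane, was the lowest of these at -0.56 and reached -0.57 on another array. TSEN54, UBN1, BCKDK and DDX54 followed at -0.44, -0.35, -0.33 and -0.25, and a second probe for DDX54 gave 0.08. The site ACTTGTG of miR-125b-2-3p, found in 246 probes (0.423%), gave a median of 0.02 over 108 measured probes.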

How the data were processed

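RNA of transfected and mock PC3 cells was compared on 1 two-colour array of a slide of 8. Per the file headers, the deposited mean spot intensities and median local background intensities were extracted by the authors with Feature Extraction 11.5.1.1 (Agilent) on a linear scale, without normalization. The deposited log10 ratio of the software, a dye-normalized ratio of Cy5 over Cy3, and the deposited series table, which equals it (largest difference 0), served as alternatives. Coordinates are those of GRCh37. Further processing is not given in the sources used here.

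Intensities were corrected by normexp with an offset of 50 and normalized by loess within the array (limma 3.58.1, R 4.3.3; tested on simulated data), without control and outlier spots. The probe with the highest mean intensity stands for a gene. Log2 levels were compared between channels after loess and Aquantile normalization, and the ratio to 3 mocks after quantile normalization of single channels. By accession, 21902 representing probes matched the RefSeq gene table (GRCh38.p14), used for names.

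The named genes were the 12 lowest and 12 highest named measured genes, the 8 lowest and 8 highest against the median of the other arrays, the lowest and highest of each of 19 lists, the 5 lowest seed-matched genes of either strand, MIR100HG and KLK3. Members of these lists, and of 11 added lists, were also named after their values were seen. The members and lists were chosen with earlier results of these data known. A few genes that the rule or the lists hold are not reported here. Alternatives were other background corrections, median centring, the scanner ratio, other filters, probe means, other mocks and the subtraction of other arrays.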

Additional observations from a re-analysis of the deposited data

How the results depend on the processing

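The counts depended on the processing. Genes lower past 1.0 numbered 57 with a normexp offset of 0, 76 with plain subtraction, 21 without background correction, 1 with median centring, 154 with the scanner ratio and with the equal deposited table, 42 relative to the mean of the other PC3 arrays and 6 with the mean over probes, in place of 12. Genes higher past 1.0 numbered 78, 89, 38 and 800 under the first 4 of these, 115 with the scanner ratio and the table, 72 with the mean of the 3 PC3 mocks and 12 among genes measured on all 8 arrays (chosen after seeing the data), in place of 21. Lower past 1.5 lay 9, 12, 0 and 21 genes with an offset of 0, plain subtraction, median centring and the scanner ratio or table, and 11 relative to the PC3 arrays, in place of 1. Higher past 1.5 lay 13, 18, 6, 40 and 21 genes with an offset of 0, plain subtraction, no correction, median centring and the scanner ratio or table, 13 with the 3 mocks, and 2 relative to the other 7 arrays or to the PC3 arrays. Median centring moved the median of all genes from 0.02 to 0.42, and relative to that shift the ratios of dim and bright genes differ. The other 19 settings of the counts stayed within 1.5 times.

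Against the mean of the other PC3 arrays the ratio of C1QTNF5 turned to 0.0158. No other named gene past 1.0 changed sign. Medians relative to all genes turned for S phase genes (0.11 relative to the other 7 arrays, 0.17 relative to the PC3 arrays), mitosis genes (0.0539 and 0.32, and 0.12 with median centring), proteasome subunits (0.0889 and 0.15, and 0.25 with median centring), mitochondrial ribosomal proteins (0.17 with median centring), integrins and focal adhesion (-0.041 with the 3 mocks), the plasminogen activator system (-0.059 relative to the PC3 arrays) and the p24 group (-0.00201 likewise). The median of the probes with a site for bases 2 to 8 was 0.0576 with median centring, -0.0814 with the 3 mocks and -0.0874 relative to the PC3 arrays, and that of the wider matches -0.10 and, chosen after seeing the data, -0.0488. In place of 0.00882, the median for bases 2 to 8 was also negative with an offset of 0 (-0.0237), plain subtraction (-0.0264) and no correction (-0.014). The scanner ratio and the table gave -0.0149, and the value relative to the other 7 arrays was -0.00984. The causes were not tested. Of the other values of named genes, 402 moved by more than the median spread of the mocks and 461 did not. A search of transcripts was not run, because transcripts were not used here. No paired analysis was possible because there is a single array for each treatment. Genes near background, such as C1QTNF5 with a raw Cy5 intensity of 26.9, are limited by their signal.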

Other observations

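The 24 cholesterol synthesis genes had a median 0.03 above all genes, with HMGCS1, which makes HMG-CoA, the highest at 0.79. HMGCS1 read 7.92 after transfection and 7.13, 6.90 and 7.10 in the 3 PC3 mocks. The 25 genes of the ATF4 stress response had a median of -0.03 relative to all genes, with ALDH18A1, an enzyme of proline synthesis, at -0.52 and DDIT4, an inhibitor of mTORC1, at 0.55. The mock levels of DDIT4 ran from 6.56 to 7.75. The 26 measured genes of glycolysis and hypoxia had a median of 0.06, from NDRG1 at -0.37 to ADM at 0.42, and none was past 0.5. The sign of NDRG1 depended on the mock, since its mocks had an SD of 0.57 and its ratio to all 3 was 0.17. The 20 measured p53 targets had a median of -0.05, with TP53I3 at -0.40 and the death receptor gene TNFRSF10B at 0.55.

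Of 23 measured heat shock chaperones, 1 was below -0.5, the HSP90 cochaperone PTGES3 at -0.86, and none was above 0.5. The shares of all measured genes past these limits were 0.883% and 1.77%. PTGES3 read 7.10 after transfection and 7.96, 8.10 and 7.81 in the mocks, so it was below each of them. The list's median was -0.07 relative to all genes, and that of the other arrays ran from -0.20 to 0.04. The 31 proteasome subunits had a median of -0.11 relative to all genes, from PSMA3 at -0.38 to PSMD2 at 0.22, and none was past 0.5. The SD of such a median over the 3 PC3 mocks was 0.14. Its sign on this array turned with median centring and relative to other arrays. The 30 mitochondrial ribosomal proteins had a median of -0.13, with 25 (83.3%) below 0, against 45.6% of all measured genes, and MRPL24 as the lowest at -0.63. That median was positive with median centring. The 34 cytosolic ribosomal proteins had a median of -0.05. RPL6 was the lowest of these at -0.50, with 14.76 after transfection and 15.26, 15.32 and 15.21 in the mocks.

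Of 16 measured epithelial markers, 1 was above 0.5, CDH3 at 0.54, and ELF3 was the lowest at -0.44. The ratio of ELF3 to the 3 mocks, which had an SD of 0.58, was 0.20. Of 18 measured mesenchymal markers none was past 0.5, with VIM at -0.35 and SPARC at 0.38. Mock levels of SPARC lay at 7.52 on the same array and at 5.90 and 6.48 on the bisamide arrays, so the ratio to the 3 mocks was 1.22. Of 24 measured genes of integrins and focal adhesions, 2 were above 0.5 and PXN was the lowest at -0.44. The 12 measured genes of the androgen receptor and luminal list had a median of -0.02, with PMEPA1 at 0.59 by 1 probe and 0.18 by another. The 25 measured growth factor genes had one of 0.02, and the 8 of the plasminogen system 0.10, which turned negative relative to the bisamide arrays. The median of 7 genes of the p24 group was 0.11, also negative relative to the bisamide arrays, of 6 VAMP genes -0.02, of 12 collagen modifying enzymes 0.11 and of 14 metal response genes 0.05, each relative to all genes.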
